A study of Mus musculus with 8 samples.

Results

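The genes described here are 9 genes of transforming growth factor beta (TGF-beta) signalling: the ligands Tgfb1, Tgfb2 and Tgfb3, the receptors Tgfbr1 and Tgfbr2, the signal transducers Smad3 and Smad7, and the target genes Tgfbi and Ctgf. They were taken by name from the array's own gene names, leaving out control spots, with all of their probes, and they make up 9 of the 25536 genes tested and 13 of 39429 probes. The tissue was 8 ovarian tumours that arose spontaneously in female C57BL/6J mice carrying the TgMISIIR-TAg transgene. In that transgene the promoter of Amhr2 (also called MISIIR), the receptor of anti-Müllerian hormone, drives the SV40 large T antigen, so every animal of both groups carried the same oncogene. The Nedd9-null group held 4 tumours and the Nedd9-WT group held 4, each sample being 1 mouse, and no drug was given. Nedd9 encodes a scaffold protein of focal adhesions and of the mitotic spindle. The labels differ on whether tumours were taken below or at a set volume. They give neither the animals' ages nor the exons that the null allele lacks, and RNA came from bulk tumour tissue, in which tumour cells and stroma are not separated.

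TGF-beta ligands are secreted in a latent complex, held in the matrix by latent TGF-beta binding proteins and released by integrins, thrombospondin and proteases. The freed dimer binds TGFBR2, which phosphorylates TGFBR1, and TGFBR1 phosphorylates SMAD2 and SMAD3. These enter the nucleus with SMAD4 and bind DNA at the SMAD box CAGAC, switching on genes such as Tgfbi, Ctgf and Smad7. Smad7 then closes the loop, because its protein blocks and degrades the receptor. In the ovary the pathway takes part in follicle growth, and in carcinomas it is known both for arresting epithelial growth and for driving epithelial-mesenchymal transition.

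RNA was measured on 1-colour Agilent arrays, and a level is given as log2 of the scanner's processed signal relative to the array's 75th percentile, so that 0 is the signal of a fairly bright probe. Differences are log2 Nedd9-null minus Nedd9-WT. They were tested with limma across all genes, adjusted by the Benjamini-Hochberg method, and a gene passed at an adjusted p under 0.05. Levels of different probes were not set against each other. The summed levels of marker lists add different probes, so the brightest probes weigh most in them. The 4 arrays per genotype limit the precision, and p-values measure the spread between mice. The genotypes were hybridised on separate slides, so that slide, scan and genotype cannot be told apart. All 13 probes were well above background on all 8 arrays, and none of their spots was saturated.

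Nedd9 itself was at -2.01, -3.50, -3.39 and -4.03 in the Nedd9-null tumours, against 1.15, 0.84, 1.30 and 1.85 in the Nedd9-WT tumours, a 22.9-fold lower mean (limma adjusted p = 0.0281). Of the Nedd9-null tumours, replicate 1 had the highest Nedd9 signal, though below every Nedd9-WT tumour. That tumour also stood apart across all probes. Its correlation with Nedd9-null replicates 2 to 4 was 0.886 to 0.920, and 0.938 to 0.973 with the Nedd9-WT arrays, whereas those replicates correlated among themselves at 0.977 to 0.984. The difference of each of the 9 genes is therefore given with this tumour and without it. It was singled out from these same data, as the Nedd9-null array most like the Nedd9-WT arrays. Leaving it out favours larger differences and a smaller spread, so limma p-values without it are a description and not an independent test. The markers of the tumour model, Amhr2, Wt1, Krt8 and Krt18, were above background on all 8 arrays. Amhr2, whose promoter drives the transgene, was at 6.46, 2.18, 0.29 and 1.64 in Nedd9-null tumours, against 6.24, 7.0, 7.04 and 6.11 in Nedd9-WT tumours. Levels of Amhr2 in Nedd9-null replicates 2 to 4 thus lay below all the others.

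The probes of Tgfb1 and Tgfb2 are printed because, of all pairs of probes for different genes among the 9, they are the most alike, which bears on whether the ligands were read separately. Capitals mark bases that are identical when the stretches are aligned without gaps. Both are 5′ to 3′, as deposited, on mm9 (Tgfb1 at chr7:26489877-26489936, plus strand, and Tgfb2 at chr1:188449333-188449392, minus strand).

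Tgfb1 probe: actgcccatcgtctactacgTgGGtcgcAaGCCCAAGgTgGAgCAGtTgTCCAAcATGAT

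Tgfb2 probe: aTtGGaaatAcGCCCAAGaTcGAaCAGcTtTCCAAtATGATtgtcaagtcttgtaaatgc

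Identity was 28 of 41 aligned bases, or 68.3%, with a longest shared run of 7 bases. In the other 73 pairs of probes of different members, identity was at most 56.2% and the longest shared run was 9 bases. Which exon or untranslated region each probe lies in was not assigned here, since no mm9 annotation was used.

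Promoters follow for Tgfb2 and Tgfbr2, the genes with a higher mean in Nedd9-null tumours, and for Tgfbr1, whose groups did not overlap. They come from RefSeq, assembly GRCm38.p6, and are 300-base windows at the annotated start, most of it upstream, 5′ to 3′ on the gene's strand. Capitals mark the SMAD box CAGAC.

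Tgfb2, chr1:186705940-186706239, minus strand: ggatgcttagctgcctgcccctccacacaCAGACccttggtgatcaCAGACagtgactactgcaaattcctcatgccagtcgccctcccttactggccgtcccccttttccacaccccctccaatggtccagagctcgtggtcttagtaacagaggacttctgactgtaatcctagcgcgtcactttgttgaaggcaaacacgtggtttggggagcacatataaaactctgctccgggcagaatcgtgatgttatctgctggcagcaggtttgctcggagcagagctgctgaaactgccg

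Tgfbr2, chr9:116175314-116175613, minus strand: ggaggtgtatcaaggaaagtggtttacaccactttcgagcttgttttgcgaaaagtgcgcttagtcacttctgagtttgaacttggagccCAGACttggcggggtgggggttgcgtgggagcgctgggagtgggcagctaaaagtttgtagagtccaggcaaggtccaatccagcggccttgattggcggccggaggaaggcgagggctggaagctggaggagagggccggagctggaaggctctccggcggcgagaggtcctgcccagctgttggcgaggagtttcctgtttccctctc

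Tgfbr1, chr4:47352972-47353271, plus strand: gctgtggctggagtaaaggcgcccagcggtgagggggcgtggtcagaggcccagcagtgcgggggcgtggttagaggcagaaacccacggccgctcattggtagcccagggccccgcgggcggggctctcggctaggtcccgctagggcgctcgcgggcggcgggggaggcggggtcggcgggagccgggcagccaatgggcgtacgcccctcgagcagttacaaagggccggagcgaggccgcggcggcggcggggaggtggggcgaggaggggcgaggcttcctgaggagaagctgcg

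The box, searched on both strands, occurred in Tgfb2 at bases 30 to 34 and 47 to 51 of the window and in Tgfbr2 at bases 91 to 95. It was not in the Tgfbr1 window shown, and a second annotated Tgfbr1 start, at chr4:47385966-47386265, held it once, at bases 48 to 52. Of the members whose windows are not printed, Tgfbi held the box at bases 12 to 16 and 166 to 170. The windows of Smad3 and Tgfb1 held none. Tgfbi, Smad3 and Tgfb1 each had a lower mean in Nedd9-null tumours, so the box did not go with direction. Of all 32851 promoter windows of this length, 49.6% held CAGAC, so its presence in these windows is common. The palindrome GTCTAGAC was in none of the windows of the 6 members that had one, and in 0.213% of all windows. A match in this window is a description and says nothing of SMAD binding in these tumours.

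With all 8 tumours, 0 of the 9 genes passed the test, against 0.0666% of all genes (17 of 25536), and 2 of 9, Tgfbr1 and Smad7, had an unadjusted limma p under 0.05, against 23.9% of all genes. The mean was lower in Nedd9-null tumours for 7 genes and higher for 2, Tgfb2 and Tgfbr2, beside 12198 lower and 13338 higher of all genes. The median log2 difference was -0.445, beside 0.0284 over all genes. The groups did not overlap for 1 of 9 genes, Tgfbr1, which was lower, against 12.7% of all genes in either direction and 5.58% in that direction. Leaving out Nedd9-null replicate 2, 3 or 4 also gave 0 of 9 that passed. Without Nedd9-null replicate 1, the tumour singled out from these data, 4 of 9 passed, or 44.4%, against 18.7% of all genes. Tgfbr2 rose, which 10.3% of all genes did, and Tgfb3, Tgfbr1 and Smad7 fell, which 8.37% did. The groups then did not overlap for 6 of 9 genes, against 34.4% of all genes. The median was then -0.617, beside -0.0721 over all genes.

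**Figure D1:**
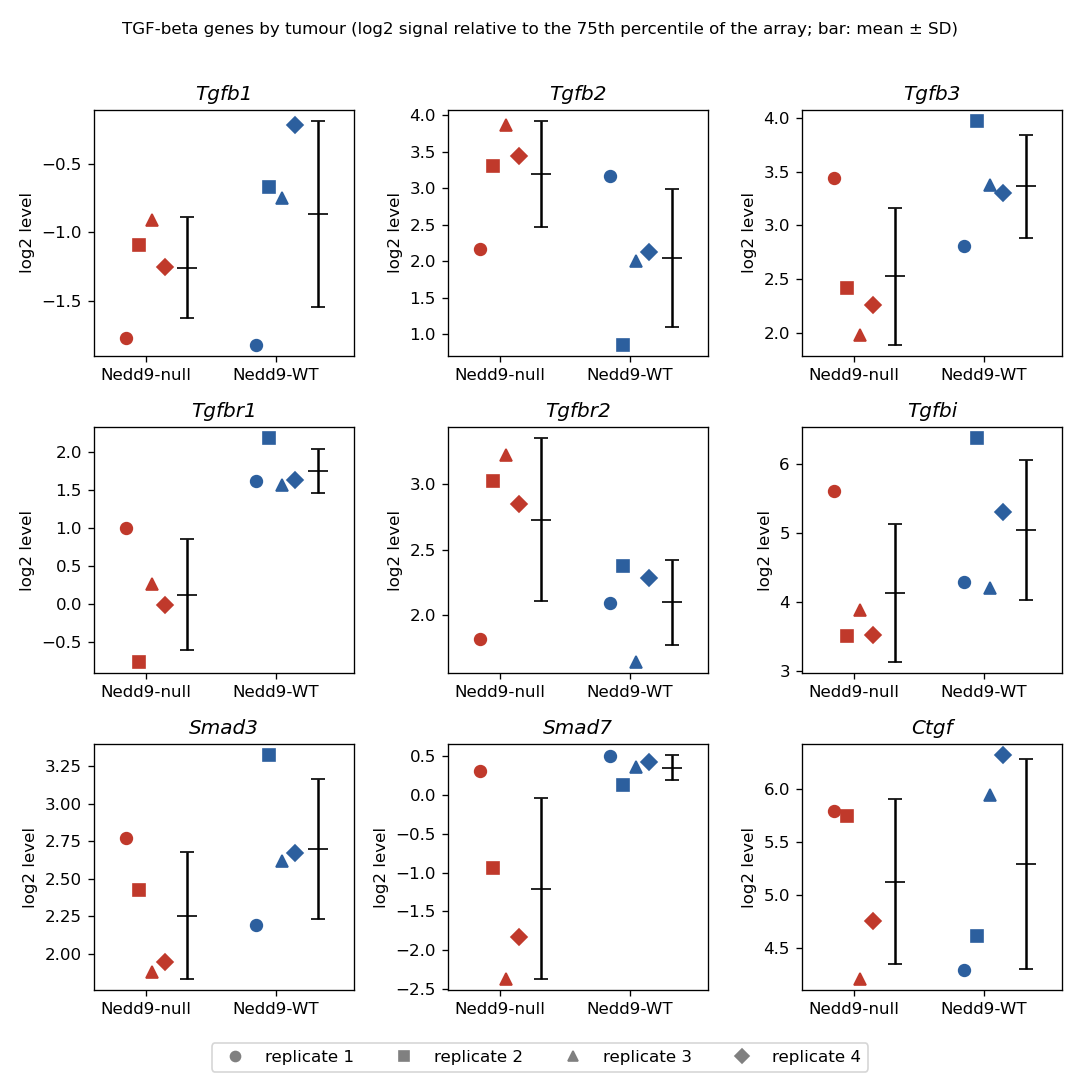
Log2 level of each of the 9 genes relative to the array's 75th percentile, 1 point per tumour, Nedd9-null left of Nedd9-WT, with the group mean and SD. Tgfbr1 is the gene whose groups do not overlap, and Nedd9-null replicate 1 lies within the range of the Nedd9-WT values for all the other genes.

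**Figure D2:**
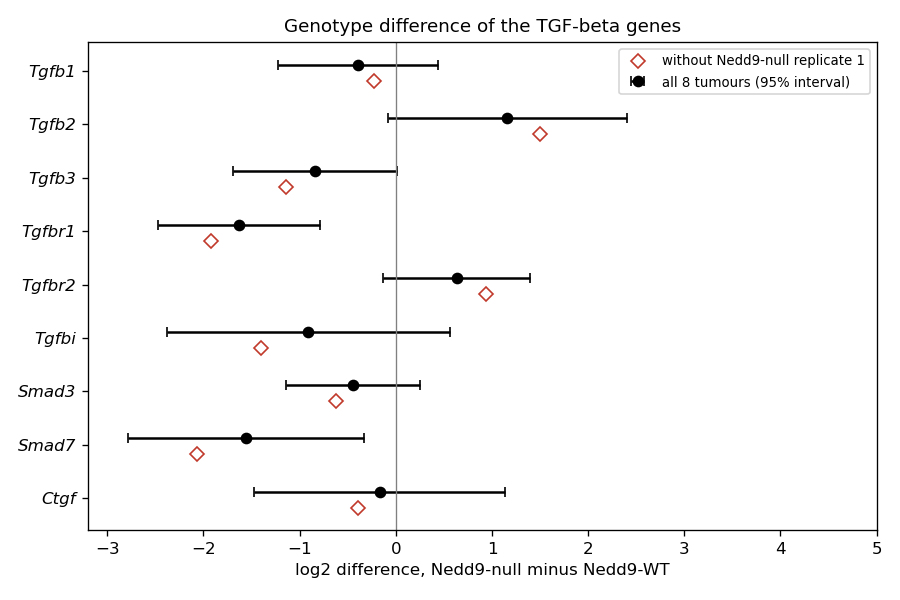
Log2 difference, Nedd9-null minus Nedd9-WT, of each gene with its 95% interval, for all 8 tumours and without Nedd9-null replicate 1. The intervals of Tgfbr1 and Smad7 lie below 0 with all tumours, and Tgfb2 and Tgfbr2 are the genes right of 0.

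The ligand Tgfb1, the isoform widely produced by platelets, leukocytes and stroma, had levels of -1.77, -1.09, -0.91 and -1.25 in Nedd9-null tumours, against -1.82, -0.67, -0.75 and -0.22 in Nedd9-WT tumours. The groups overlapped, and the lowest value of all was Nedd9-WT replicate 1. The mean was -1.26 ± 0.37 in Nedd9-null tumours and -0.86 ± 0.68 in Nedd9-WT tumours (SD, n = 4 each). The log2 difference was -0.39 with an SE of 0.36 and a 95% interval of -1.23 to 0.44 (limma adjusted p = 0.549). Tgfb1 had 10 spots and their variation was 1.42% to 5.35%, which is small beside the differences between tumours. Its difference was -0.22 without Nedd9-null replicate 1 (limma adjusted p = 0.734).

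Tgfb2, the isoform noted for its part in embryonic and heart development, was at 2.17, 3.30, 3.87 and 3.45 in Nedd9-null tumours, against 3.17, 0.86, 2.00 and 2.13 in Nedd9-WT tumours. Nedd9-null replicates 2 to 4 were the highest of all 8, while Nedd9-WT replicate 1 lay above Nedd9-null replicate 1, so the groups overlapped. The means were 3.20 ± 0.73 in the Nedd9-null group and 2.04 ± 0.95 in the Nedd9-WT group, a 2.23-fold difference. It was 1.16 on the log2 scale with an SE of 0.54, an interval of -0.08 to 2.40 and a limma adjusted p of 0.236. Leaving out Nedd9-null replicate 1 gave 1.50, or 2.83-fold, without overlap, but a limma adjusted p of 0.0853. The second Tgfb2 probe (mm9 chr1:188447534-188447593) gave a difference of 1.60 (limma adjusted p = 0.154).

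The third ligand, Tgfb3, which acts in palate and lung development, was at 3.44, 2.42, 1.98 and 2.26 in Nedd9-null tumours, against 2.80, 3.97, 3.38 and 3.30 in Nedd9-WT tumours. Nedd9-null replicates 2 to 4 were the lowest of all, and Nedd9-null replicate 1 was above 3 of the 4 Nedd9-WT tumours. The means were 2.53 ± 0.64 in the Nedd9-null group and 3.36 ± 0.48 in the Nedd9-WT group. The log2 difference was -0.84 with an SE of 0.37 (limma adjusted p = 0.215), and -1.14 without that tumour, 2.21-fold, which passed (limma adjusted p = 0.0334). The probe lies at mm9 chr12:87397804-87397863, minus strand, and had 10 spots with a variation of 1.27% to 2.94%.

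Tgfbr1 encodes the type I receptor, the kinase that phosphorylates SMAD2 and SMAD3. Its brighter probe (mm9 chr4:47427736-47427795, plus strand) was at 1.00, -0.76, 0.27 and -0.015 in Nedd9-null tumours, against 1.62, 2.19, 1.57 and 1.64 in Nedd9-WT tumours. The 2 groups did not overlap, and even Nedd9-null replicate 1, the highest of its group, lay under the lowest Nedd9-WT tumour. The means were 0.12 ± 0.73 in the Nedd9-null group and 1.75 ± 0.29 in the Nedd9-WT group, 3.09-fold lower in Nedd9-null. The log2 difference was -1.63 with an SE of 0.36 and an interval of -2.47 to -0.79, and its unadjusted limma p of 0.00216 ranked at 643 of 25536 genes (adjusted p = 0.0856). Without Nedd9-null replicate 1 it was -1.92, 3.79-fold, with a limma adjusted p of 0.00482. The dimmer Tgfbr1 probe (mm9 chr4:47424946-47425005) was at -2.63, -3.68, -3.65 and -3.73 in Nedd9-null tumours, against -2.19, -1.62, -2.41 and -2.34 in Nedd9-WT tumours. It too did not overlap between genotypes, and its difference was -1.28 (limma adjusted p = 0.0891).

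Tgfbr2, the ligand-binding type II receptor, was at 1.82, 3.02, 3.22 and 2.85 in Nedd9-null tumours, against 2.09, 2.38, 1.64 and 2.28 in Nedd9-WT tumours. The 3 highest values were those of Nedd9-null replicates 2 to 4, and Nedd9-null replicate 1 lay within the Nedd9-WT values. The means were 2.73 ± 0.62 in the Nedd9-null group and 2.10 ± 0.33 in the Nedd9-WT group. The log2 difference was 0.63 with an SE of 0.33 and an interval of -0.14 to 1.40 (limma adjusted p = 0.288). It was 0.93, 1.91-fold, without Nedd9-null replicate 1, and passed (limma adjusted p = 0.0274). The probe lies at mm9 chr9:115997155-115997214, minus strand, and the second one (chr9:115999496-115999555) gave a difference of 0.67 (limma adjusted p = 0.142).

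The receptor ratio within an array does not depend on the scaling between arrays. Relative to its Nedd9-WT mean, the log2 ratio of Tgfbr2 to Tgfbr1 was 0.48, 3.44, 2.61 and 2.52 in Nedd9-null tumours, against 0.12, -0.15, -0.27 and 0.30 in Nedd9-WT tumours. The groups did not overlap, by a small margin for Nedd9-null replicate 1, and the mean was 2.26 ± 1.26 in Nedd9-null tumours (SD, n = 4). The ratio of Tgfb2 to Tgfb3 was 0.06, 2.21, 3.22 and 2.51 in Nedd9-null tumours, against 1.69, -1.79, -0.05 and 0.15 in Nedd9-WT tumours, of which replicates 1 and 4 were higher than Nedd9-null replicate 1. Ratios of Tgfb2 to Tgfb1, Tgfbr2 to Smad7 and Tgfb2 to Smad7 were also computed, and in each of these the groups overlapped. Both ratios given here were picked after the values were seen, and no ratio carries a test.

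**Figure D3:**
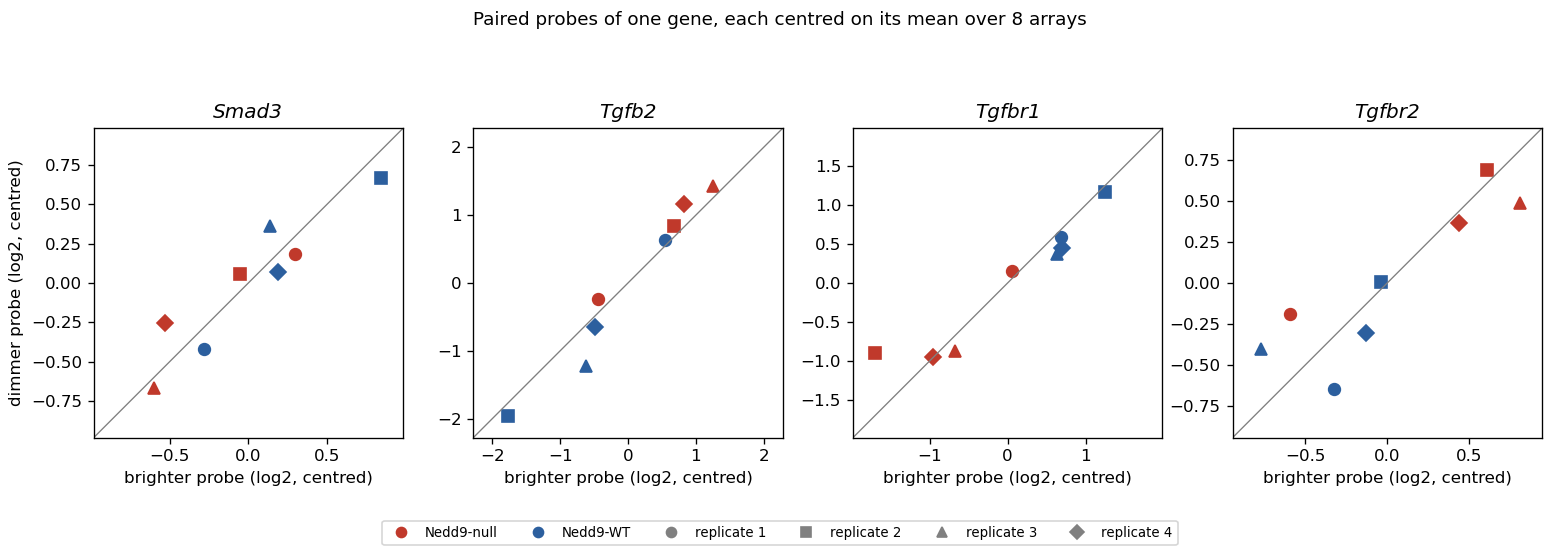
The brighter and the dimmer probe of the 4 genes with a pair of probes, each as log2 level minus its mean over 8 arrays, 1 point per tumour, red for Nedd9-null and blue for Nedd9-WT, with the line of equal values. The largest gap between paired probes in 1 tumour was 0.275 for Smad3, 0.403 for Tgfbr2, 0.608 for Tgfb2 and 0.801 for Tgfbr1.

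Smad3, the transducer phosphorylated by the receptor, was at 2.77, 2.42, 1.88 and 1.95 in Nedd9-null tumours, against 2.19, 3.32, 2.62 and 2.67 in Nedd9-WT tumours. The groups overlapped. The means were 2.25 ± 0.42 in the Nedd9-null group and 2.70 ± 0.47 in the Nedd9-WT group, and the log2 difference was -0.44 with an SE of 0.30 (limma adjusted p = 0.408). Its second probe gave -0.34 (limma adjusted p = 0.511). Leaving out Nedd9-null replicate 1 gave -0.62 (limma adjusted p = 0.194).

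Smad7, the inhibitory SMAD that is itself a target of the pathway, was at 0.30, -0.94, -2.37 and -1.83 in Nedd9-null tumours, against 0.50, 0.13, 0.36 and 0.42 in Nedd9-WT tumours. Nedd9-WT tumours were close together, Nedd9-null replicates 2 to 4 were below them all, and Nedd9-null replicate 1 lay among them. The means were -1.21 ± 1.17 in the Nedd9-null group and 0.35 ± 0.16 in the Nedd9-WT group, 2.95-fold lower in Nedd9-null, and the log2 difference was -1.56 with an SE of 0.53 (limma adjusted p = 0.139). Without Nedd9-null replicate 1, Smad7 fell by 2.06 on the log2 scale, 4.18-fold (SE 0.33, limma adjusted p = 0.00605). This was the largest fold among the 9 genes in that comparison.

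The target Tgfbi, a secreted matrix protein of the fasciclin family, was at 5.61, 3.50, 3.89 and 3.53 in Nedd9-null tumours, against 4.28, 6.38, 4.21 and 5.30 in Nedd9-WT tumours. The Nedd9-null replicate 1 value exceeded 3 of the 4 Nedd9-WT values, and Nedd9-null replicates 2 to 4 were the lowest of all. The means were 4.13 ± 1.00 in the Nedd9-null group and 5.04 ± 1.02 in the Nedd9-WT group, with a log2 difference of -0.91, an SE of 0.64 and a limma adjusted p of 0.426. Without Nedd9-null replicate 1 it was -1.40, 2.64-fold, with no overlap and a limma adjusted p of 0.118. The probe is at mm9 chr13:56740460-56740519, plus strand.

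Ctgf (now Ccn2), a matricellular target of both TGF-beta and YAP, was at 5.79, 5.75, 4.20 and 4.75 in Nedd9-null tumours, against 4.29, 4.61, 5.94 and 6.32 in Nedd9-WT tumours. Each group held a high pair and a low pair of tumours. The means were 5.12 ± 0.78 in the Nedd9-null group and 5.29 ± 0.99 in the Nedd9-WT group, and the log2 difference was -0.17 with an SE of 0.56 (limma adjusted p = 0.887). It was -0.39 without Nedd9-null replicate 1 (limma adjusted p = 0.711). The interval with all 8 tumours, -1.48 to 1.14, leaves room for a difference of more than 2-fold in either direction. The probe is at mm9 chr10:24318281-24318340, plus strand.

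Genes whose levels over the 8 arrays were most like each member's were found among 17089 genes by the root mean square difference of centred log2 levels, as a description. The smallest values were 0.103 for Rbm38 with Tgfb3, 0.12 for Tbc1d8b with Smad3 and 0.144 for Ipo13 with Tgfbr2. Tgfb1 was nearest to Txnip at 0.166, Tgfbi to Acss2 at 0.2 and Tgfbr1 to Tspyl5 at 0.203. For Smad7 it was Itpripl2 at 0.205, for Tgfb2 Kcnv2 at 0.251 and for Ctgf Rhox12 at 0.317.

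The remaining pathway genes came from 6 lists, of which 80 of 82 genes were measured (Bambi and Wisp3 were not), and 0 of the 80 passed limma's test with all 8 tumours, whereas 23 had an unadjusted p under 0.05, 12 higher and 11 lower, beside 23.9% of all genes. Their median difference was -0.117, and 13 did not overlap between genotypes, 5 higher and 8 lower in Nedd9-null, beside 12.7% of all genes. With Nedd9-null replicate 1 left out, 19 passed, 9 higher and 10 lower, beside 18.7% of all genes. These counts are near the shares of all genes and are no result about the pathway genes.

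**Figure D4:**
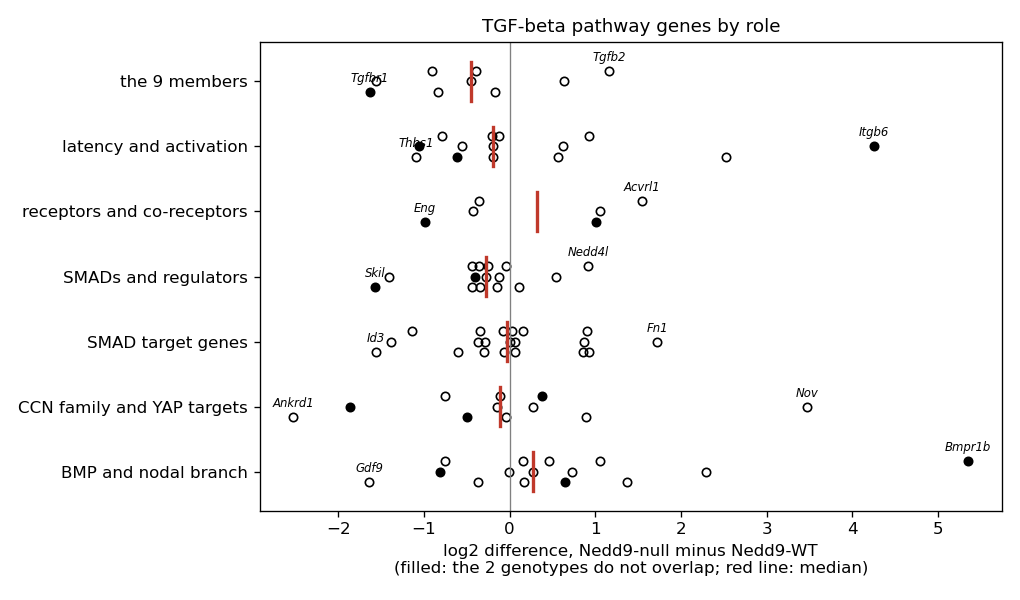
Log2 difference, Nedd9-null minus Nedd9-WT, of each measured gene in the 9 members and the 6 pathway lists, with filled points where the genotypes did not overlap and red lines at the median. Bmpr1b and Itgb6 lie farthest right, and none passed limma's test with all 8 tumours.

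Among 14 latency and activation genes, 5 were higher and 9 lower in Nedd9-null tumours, with a median of -0.196. Integrin beta 6, encoded by Itgb6 and an activator of latent TGF-beta on epithelium, cleared the background threshold in 3 of 4 Nedd9-null tumours but in 0 of 4 Nedd9-WT tumours. Itgb6 was at -8.52, -3.27, -3.79 and -4.48 in Nedd9-null tumours, against -9.58, -9.24, -9.56 and -8.70 in Nedd9-WT tumours (limma adjusted p = 0.0956). Nedd9-null replicate 1 thus lay close to Nedd9-WT replicate 4. With the Nedd9-WT group set no lower than background, the Nedd9-null mean was 5.57-fold higher. That figure is no strict lower bound, because the Nedd9-null mean includes replicate 1. Its integrin partner Itgav was at -0.11, -0.39, -0.51 and -0.55 in Nedd9-null tumours, against 0.03, 0.34, 0.11 and 0.42 in Nedd9-WT tumours, with no overlap and a difference of -0.62 (limma adjusted p = 0.107). Furin, the protease that cuts the ligand precursors, differed by -0.79 (limma adjusted p = 0.126). Ltbp4, a latent TGF-beta binding protein, was at 1.20, 3.55, 4.81 and 4.64 in Nedd9-null tumours, against 1.32, 2.15, -0.40 and 1.00 in Nedd9-WT tumours, a difference of 2.53 (limma adjusted p = 0.142). In the 7 tumours other than Nedd9-null replicate 1, Itgb6 and Ltbp4 rose, and Itgav and Furin fell (limma adjusted p = 0.000309, 0.0108, 0.0239 and 0.0134). Itgb6 was kept for the test only through the Nedd9-null group, where it was high. That filter favours a difference, so its p-values are a description and not a test.

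Among 6 receptors and co-receptors, 3 were higher and 3 lower. Betaglycan, encoded by Tgfbr3 and a co-receptor that presents TGF-beta 2 to TGFBR2, was at 1.75, 2.53, 2.47 and 2.37 in Nedd9-null tumours, against 1.44, 1.66, 0.44 and 1.51 in Nedd9-WT tumours. All 4 Nedd9-null values were the higher ones, and the difference was 1.01 (SE 0.31, limma adjusted p = 0.122). Endoglin (Eng), an endothelial co-receptor, was at -1.11, -1.45, -2.03 and -1.57 in Nedd9-null tumours, against -0.77, -0.95, -0.60 and 0.10 in Nedd9-WT tumours, with no overlap and a difference of -0.98 (limma adjusted p = 0.112). With Nedd9-null replicate 1 left out, Tgfbr3 rose by 1.19 and Eng fell by 1.13 on the log2 scale (limma adjusted p = 0.0376 and 0.0366). The type I receptor genes Acvrl1 and Acvr1b rose in that comparison as well, by 2.33 and 1.76 (limma adjusted p = 0.00825 and 0.00239).

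Of 15 SMADs and regulators, 12 were lower and 3 higher in Nedd9-null tumours, with a median of -0.271. Skil encodes SnoN, a SMAD co-repressor that is itself induced by the pathway, and was at 0.02, -0.88, -2.02 and -1.85 in Nedd9-null tumours, against 0.04, 0.22, 0.33 and 0.96 in Nedd9-WT tumours. Its groups did not overlap, though Nedd9-null replicate 1 was close to Nedd9-WT replicate 1, and the difference was -1.57 (SE 0.47, limma adjusted p = 0.115). Tgif2, another SMAD co-repressor, differed by -1.41 (limma adjusted p = 0.146). Without Nedd9-null replicate 1, Skil fell by 1.97 and Tgif2 by 1.92 on the log2 scale (limma adjusted p = 0.00862 and 0.00195), and Nedd4l, which encodes a ubiquitin ligase of SMAD2 and SMAD3, rose by 1.25 (limma adjusted p = 0.0336).

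The 20 SMAD target genes were evenly split, 10 higher and 10 lower, with a median of -0.0292. Id2, encoding an inhibitor of basic helix-loop-helix factors, was at 1.91, 1.78, 1.75 and 1.17 in Nedd9-null tumours, against 1.27, 0.76, 0.57 and 0.53 in Nedd9-WT tumours, a difference of 0.87 (limma adjusted p = 0.106). Pmepa1, an inducible inhibitor of the pathway, differed by 0.02 with an SE of 0.20 (limma adjusted p = 0.956). In the other 7 tumours, without Nedd9-null replicate 1, Tsc22d1 fell by 2.13 on the log2 scale and Fn1, encoding fibronectin, rose by 2.92 (limma adjusted p = 0.00841 and 0.0474).

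In the CCN family and YAP target list, 7 of 11 genes were lower and 4 higher. Axl, a receptor tyrosine kinase gene that YAP can induce, was at 3.35, 1.79, 1.37 and 1.03 in Nedd9-null tumours, against 3.55, 3.75, 3.89 and 3.80 in Nedd9-WT tumours, with no overlap and a difference of -1.86 (limma adjusted p = 0.0956). When Nedd9-null replicate 1 was left out, Axl fell by 2.35 on the log2 scale (limma adjusted p = 0.000723). Nov (now Ccn3), a CCN family gene like Ctgf, was at -8.42, -3.22, -3.93 and -4.32 in Nedd9-null tumours, against -6.24, -9.23, -8.90 and -9.43 in Nedd9-WT tumours, and was well above background in 3 of 4 Nedd9-null and 1 of 4 Nedd9-WT tumours. The groups overlapped, the difference was 3.48 (SE 1.22, limma adjusted p = 0.147), and Nov rose by 4.63 without Nedd9-null replicate 1 (limma adjusted p = 0.00778). Like Itgb6, Nov was kept only through the Nedd9-null group, where it was high, so its p-values too are a description. In the BMP and nodal branch, 10 of 15 genes were higher. Bmpr1b, a type I BMP receptor, was at -0.12, 0.93, 1.31 and 1.06 in Nedd9-null tumours, against -3.53, -3.67, -8.00 and -3.04 in Nedd9-WT tumours, with no overlap and a difference of 5.36 (SE 1.05, limma adjusted p = 0.0761). On 1 of the 4 Nedd9-WT arrays its probe was not well above background. The BMP type II receptor Bmpr2 differed by -0.81 (limma adjusted p = 0.105) and Gdf9, an oocyte growth factor gene, by -1.64 (limma adjusted p = 0.0901). In the 7 tumours without Nedd9-null replicate 1, Bmpr1b rose by 5.66, while Gdf9 fell by 1.98 and Bmpr2 by 0.97 on the log2 scale (limma adjusted p = 0.0166, 0.00286 and 0.0109).

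Markers of the cell types that a tumour could hold are given beside these results, and 0 genes of any marker list passed limma's test with all 8 tumours. At an unadjusted limma p under 0.05, beside 23.9% of all genes, were 4 of 4 ciliated oviduct genes, higher in Nedd9-null tumours. Lower at that threshold were 4 of 6 granulosa and Sertoli, 2 of 5 endothelial and 1 of 3 platelet genes. None of the epithelial, fibroblast, leukocyte, smooth muscle or mesothelial genes reached it. With Nedd9-null replicate 1 left out, 18.7% of all genes passed. In that comparison 4 of 4 ciliated oviduct and 2 of 5 epithelial genes rose. Those that fell were 5 of 6 granulosa and Sertoli genes and 1 of 5 fibroblast genes. In lists this short, counts of 1 or 2 are near these shares and are no result about the cell type. The mean centred log2 level of 4 ciliated oviduct genes was 2.70, 5.66, 6.29 and 6.32 in Nedd9-null tumours, against 1.49, 0.19, -1.50 and -0.18 in Nedd9-WT tumours, so that Nedd9-null replicate 1 too lay above every Nedd9-WT tumour. All 4 genes were above background on all 8 arrays. Their summed level, in multiples of the array's 75th percentile, was 9.17 to 101 in the Nedd9-null tumours, against 1.41 to 3.86 in the Nedd9-WT tumours. That of 6 granulosa and Sertoli genes was 0.79, -2.85, -3.99 and -4.07 in Nedd9-null tumours, against 0.28, -0.14, 0.13 and -0.27 in Nedd9-WT tumours, with summed levels of 15.04 to 58.5 in the Nedd9-null group and 50.75 to 73.7 in the Nedd9-WT group. Of these genes 4 of 6 were above background on all 8 arrays. Amh and Fshr were above background on 1 of 4 Nedd9-null arrays, against 4 of 4 Nedd9-WT arrays. Both were thus kept only through the Nedd9-WT group, where their means were higher, which favours a fall. Foxl2, of the same list, was at 4.10, 3.61, 3.98 and 3.94 in Nedd9-null tumours, against 3.78, 3.375, 3.68 and 3.79 in Nedd9-WT tumours. The Foxl2 difference was 0.25, so the markers of this list did not all fall (limma adjusted p = 0.419). The epithelial list was at -1.80, 2.30, 2.29 and 1.17 in Nedd9-null tumours, against -0.99, 0.68, 0.21 and 0.11 in Nedd9-WT tumours, with summed levels of 5.07 to 90.9 in the Nedd9-null group and 10.04 to 54.2 in the Nedd9-WT group.

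Fibroblast, endothelial, leukocyte, smooth muscle, platelet and mesothelial lists overlapped between genotypes. Fibroblast markers were at -0.10, -0.18, -1.07 and -0.80 in Nedd9-null tumours, against 1.48, -0.31, -0.76 and -0.41 in Nedd9-WT tumours. Nedd9-WT replicate 1, the highest, was also the Nedd9-WT tumour with the most Tgfb2. Nedd9-null replicate 3, the lowest, had the most Tgfb2 of all tumours. Summed levels of the fibroblast list were 11 to 19.4 in the Nedd9-null group and 16.5 to 50.01 in the Nedd9-WT group. Those of the endothelial list were 2.96 to 3.84 in the Nedd9-null group and 3.22 to 4.90 in the Nedd9-WT group, and those of the leukocyte list 12.4 to 61.1 in the Nedd9-null group and 15.95 to 24.9 in the Nedd9-WT group. For the smooth muscle list they were 4.73 to 16.3 in the Nedd9-null group and 4.68 to 11.95 in the Nedd9-WT group. The platelet list, with 2 of 3 genes above background on all 8 arrays, had 0.632 to 3.39 in the Nedd9-null group and 0.765 to 8.87 in the Nedd9-WT group, and the mesothelial list had 0.935 to 8.25 in the Nedd9-null group and 2.415 to 4.80 in the Nedd9-WT group. All genes of the other lists in this paragraph were above background on all 8 arrays. No gene of these lists was below background on all 8 arrays. The part of cell make-up in the results above was not tested, and in bulk RNA fewer cells of a type and less RNA per cell cannot be told apart.

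**Figure D5:**
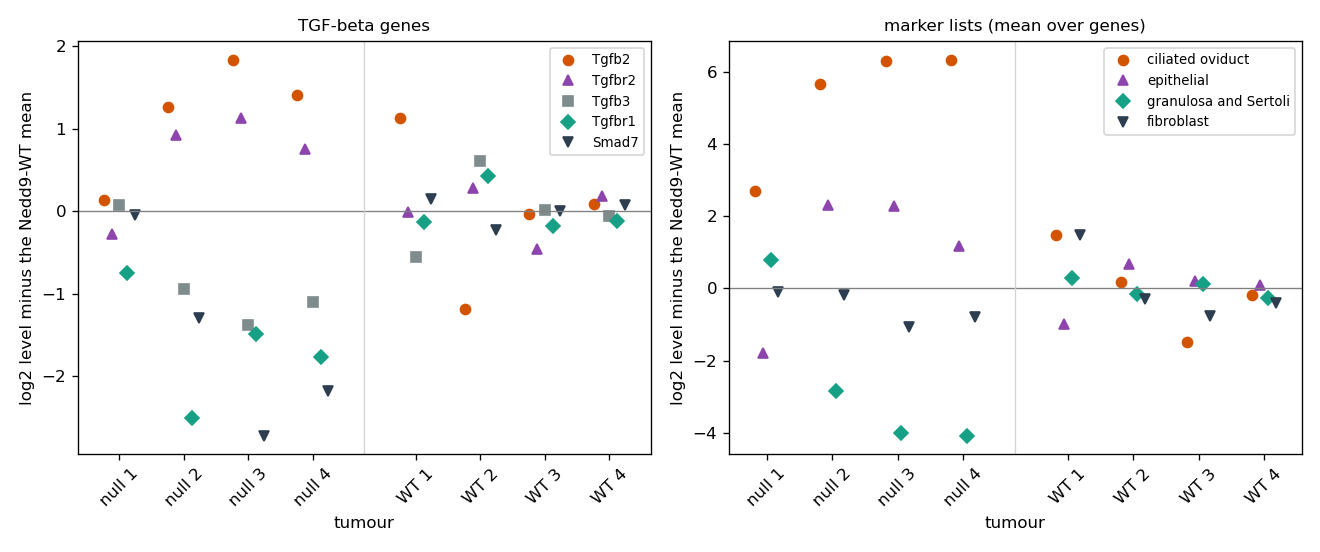
Left, log2 level of 5 TGF-beta genes in each tumour minus the gene's Nedd9-WT mean, and right, the mean of centred log2 levels of 4 marker lists, with Nedd9-null tumours left of Nedd9-WT tumours. Nedd9-null replicates 2 to 4 lie apart from Nedd9-WT for ciliated oviduct, for epithelial and for granulosa and Sertoli markers. Nedd9-null replicate 1 lies within the Nedd9-WT values for fibroblast markers alone among the 4 lists.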

How the data were processed

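Each of the 8 tumours was hybridised to 1 Agilent 1-colour array, and groups and replicate numbers come from the sample titles. Per the submitters' processing notes the scans were read with Agilent Feature Extraction 9.5.3, and per the file headers the deposited intensity was background-subtracted and detrended within the array and not normalized between arrays. The authors also deposited a table of log2 values, whose columns share a median of 8.24 and follow the log2 median signal at r of 0.999 or higher. Its background step is not given in the sources used here, and it served as an alternative.

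Of 44397 spots per array, 1377 controls were left out, as were spots marked as outliers (194 to 292 per array, 10 of them for the members), and spots were averaged to 39429 probes, of which 27 lacked a value on an array. Levels are log2 processed signal minus the array's 75th percentile (signal 2418 to 3552), and 73% to 84.6% of probes were above background. Probes well above background on 3 of 4 arrays of a genotype were kept, and a gene was read from its brightest kept probe. Names follow RefSeq, GRCm38.p6 (26055 probes matched by accession, 3195 by symbol, 930 by synonym, 9249 kept the file's name).

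Differences were tested in R 4.3.3 by limma 3.58.1, with tables read by the data.table package, version 1.17.8, and with Benjamini-Hochberg adjustment. Tested on simulated data of 25536 genes, with 200 changed in each of 5 sets, this found 14.8%, 58.4%, 74.8% and 79.6% of genes changed by 1, 2, 3 and 4 on the log2 scale. These shares hold for the simulated setting. In the 8 tumours larger differences failed to pass, such as Bmpr1b at 5.36 and the ciliated oviduct gene Foxj1 at 6.58 (limma adjusted p = 0.0761 and 0.0596). A gene that did not pass is therefore not shown to be unchanged. Alternatives were other scalings, background corrections, filters, probe rules, array weights, a replicate block and leaving out each tumour. A gene not well above background in 1 genotype has a bound, set against the higher of its own value and the lowest value above background. Dim values in the other genotype were not adjusted for this. Named are all members and Nedd9, genes from the 4 with the smallest p in each pathway list, and the gene most alike to each member of the 3 found. Not all of those 4 were named. Tgfbrap1, Foxh1, Nox4, Lox, Tead1, Yap1 and Bmp7 were left out, of which Tead1 (lower in Nedd9-null) and Yap1 (higher) did not overlap between genotypes. Acvr1b, Fn1 and Pmepa1 were named outside this rule, after their values were seen. The members and lists were chosen with earlier results of these data known. Figures were drawn with matplotlib 3.10.9 in Python 3.11.15.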

Additional observations from a re-analysis of the deposited data

Results flagged for a closer look

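Of 52 groups of 4 tumours examined for a single tumour far from the other 3 (Dixon's test), 5 were singled out, and chance singles out about 1 in 20. Nedd9-WT replicate 2 had a Tgfbr1 level of 2.185, above the other Nedd9-WT tumours at 1.57 to 1.64. Nedd9-null replicate 1 had a mean centred log2 level of -0.37 for the receptors and co-receptors, below the other Nedd9-null tumours at 0.48 to 0.63. For the SMADs and regulators the same tumour was at 0.115, above the others at -0.44 to -0.36. Nedd9-WT replicate 3 was at -1.85 for the smooth muscle markers, below the other Nedd9-WT tumours at 0.42 to 0.75. Nedd9-WT replicate 4 was at -0.917 for the mesothelial markers, below the others at 0.17 to 0.40.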

How the results depend on the processing

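The count of all genes that passed limma's test, 17 (15 higher, 2 lower in Nedd9-null), depended on the processing. It was 4 after scaling by the median (2 higher, 2 lower), 4 after quantile normalization (3 higher, 1 lower), 7 with probes above background on all 8 arrays and 5983 with array weights. It was 0 with the replicate block (4729 at an unadjusted p under 0.05) and 0 with an equal-variance test (5809 unadjusted). Leaving out a tumour gave 0 to 4776, 4776 when Nedd9-null replicate 1 was left out, 42 for Nedd9-WT replicate 1 and 2 for Nedd9-null replicate 4. Of the 9 members, 4 passed with array weights, beside 5983 of all 25536 genes, and 0 to 4 when a tumour was left out, the 4 without Nedd9-null replicate 1. Array weights gave most members differences near those without that tumour, for Tgfbr1 -1.92 in both and for Smad7 -1.99 against -2.06. The 2 settings are thus not separate support. Of the 80 pathway genes, 1 passed with normexp background correction (Bmpr1b), 24 with array weights and 0 to 19 when a tumour was left out, the 19 without Nedd9-null replicate 1. The members' median difference was -0.713 to -0.394 when a tumour was left out. The direction of 8 members was the same under every alternative, while that of Ctgf reversed, to 0.139 when Nedd9-null replicate 3 was left out, 0.0495 when Nedd9-WT replicate 3 was and 0.174 when Nedd9-WT replicate 4 was, and ranged from -0.501 to 0.174 over the tumours left out. The labels name no source shared by same-numbered tumours, and whether there was one is not known. Deviations of same-numbered tumours correlated at -0.232 to -0.04, and with the block 0 members passed. Scaling by the median moved the median of all genes to -0.162, against 0.0284. The causes were not tested.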
